A study of Mus musculus with 4 samples.

Results

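Foxp2, Tle4, Tbr1, Fezf2, Bcl11b, Sox5 and Foxp1 encode transcriptional regulators known for the identity of deep-layer cortical projection neurons. They were taken as a named list, 7 of the 31053 genes in the count matrices, and all 7 passed the low-count filter of every test below. Single-cell transcriptomes had been collected from the ventromedial prefrontal cortex (vmPFC; prelimbic and infralimbic areas) of male C57BL/6 mice, injected at 8 weeks of age with 5 rAAV2-retro viruses. Each virus carried EGFP under a CAG promoter and its own short barcode, and each was delivered to 1 target of this cortex: agranular insula, dorsomedial striatum, mediodorsal thalamus, basolateral amygdala or lateral hypothalamus. Unsorted cells made up 3 libraries, titled as 1 mouse each and called unsorted replicates 1 to 3 here, and EGFP-positive cells of 3 further mice, pooled after sorting, made up 1 sorted library. Every group had received the same viruses, so there is no uninjected control. The titles give each unsorted library its own mouse, but the protocol speaks of cells of these mice loaded into 3 lanes, so p-values may measure technical spread only.

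The libraries held 2075 to 8040 cell barcodes and 54728191 to 87809114 UMIs (unique molecular identifiers, the counted transcript molecules). Any pair of libraries shared 5 to 30 cell barcodes. The deposited metadata label 9368 of these cells as excitatory neurons of 7 subtypes, each named by layer and gene: L2/3-Calb1, L2/3-Rorb, L5-Bcl6, L5-S100b, L5-Htr2c, L6-Npy and L6-Syt6. The name gene of each of the 7 subtypes was at its highest in that subtype. Neurons of the sorted library were deeper, with a median of 31669 UMIs against 21343.5 to 23213 in the unsorted libraries. Levels are given as CPM, the counts of a gene scaled to 1000000 UMIs, from UMIs summed over the neurons of a library and subtype, as mean ± SD over the 3 unsorted libraries unless said otherwise. The subtypes had been clustered on the same expression values, so differences between subtypes are described and not tested.

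As background, layer 6 corticothalamic and layer 5 subcerebral neurons are specified by a set of regulators that act partly by restraining one another. Fezf2, a zinc finger factor, is known for specifying subcerebral neurons, where Bcl11b (Ctip2), another zinc finger factor, acts downstream of it. Tbr1, a T-box factor, promotes corticothalamic identity and restrains Fezf2 and Bcl11b, and Sox5, an SRY-related factor, controls the timing of deep-layer neuron production. Tle4 is a Groucho-family co-repressor that binds no DNA by itself, and Foxp2 and Foxp1 are forkhead factors that can pair with each other. All of them are best known from cortical development, whereas the neurons here are adult.

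In the annotation of build GRCm38 (GENCODE M21) the 7 genes are protein coding and lie on 5 chromosomes. Foxp2 spans chr6:14901349-15441977 on the plus strand, Foxp1 spans chr6:98925338-99522721 and Sox5 spans chr6:143828425-144781977, the latter pair on the minus strand. Tle4 lies at chr19:14448150-14598051, Fezf2 at chr14:12342094-12348189 and Bcl11b at chr12:107910403-108003602, all on the minus strand, and Tbr1 at chr2:61802930-61814114 on the plus strand. Foxp1 overlaps the gene model Gm20696 on its own strand, so reads in the shared stretch may have been left out of its count. No other member had such an overlap with a gene in the matrices.

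Tbr1, Fezf2 and Bcl11b are the 3 members that differed with barcode count in L5-S100b neurons, as described further on, and the 250 bases before their RefSeq starts are shown for that reason. Sequences are from RefSeq (GRCm38.p6), which held a promoter for 6 of the 7 members. They cover chr2:61804203-61804452 on the plus strand for Tbr1, chr14:12345866-12346115 on the minus strand for Fezf2 and chr12:108003415-108003664 on the minus strand for Bcl11b. The windows of Tbr1 and Fezf2 lie inside the GENCODE spans given above, and that of Bcl11b crosses the GENCODE start, so none of them is upstream of the whole GENCODE model. Capitals mark matches, on either strand, to TGTTTA, the core bound by forkhead factors, or AACAAT, a core bound by SOX factors.
Tbr1: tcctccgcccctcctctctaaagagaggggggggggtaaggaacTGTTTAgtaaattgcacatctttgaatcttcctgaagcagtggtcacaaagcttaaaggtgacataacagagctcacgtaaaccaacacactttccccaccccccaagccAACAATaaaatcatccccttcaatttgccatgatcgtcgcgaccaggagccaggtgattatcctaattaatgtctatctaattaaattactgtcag
Fezf2: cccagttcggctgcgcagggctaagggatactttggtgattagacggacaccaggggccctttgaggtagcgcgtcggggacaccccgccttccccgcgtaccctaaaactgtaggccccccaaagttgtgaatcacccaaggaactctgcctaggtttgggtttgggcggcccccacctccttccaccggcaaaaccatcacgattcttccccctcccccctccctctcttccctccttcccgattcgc
Bcl11b: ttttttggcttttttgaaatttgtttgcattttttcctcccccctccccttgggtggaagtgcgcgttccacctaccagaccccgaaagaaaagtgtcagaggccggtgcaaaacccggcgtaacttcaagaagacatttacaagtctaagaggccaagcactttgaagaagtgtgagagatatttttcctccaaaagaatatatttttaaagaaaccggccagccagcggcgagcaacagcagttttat
The Tbr1 promoter held both motifs, TGTTTA beginning 206 bases and AACAAT beginning 96 bases before the start. Those of Fezf2 and Bcl11b held neither in this window. Of 32851 RefSeq mouse promoters of the same length, 12.0% held TGTTTA and 9.42% held AACAAT, and the 2 motifs do not overlap in the Tbr1 sequence. A match of letters is a description and not a bound site.

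Foxp2 had 1 main site among the excitatory neurons, L6-Syt6. In L6-Syt6 neurons its level was 240, 237 and 229 CPM in unsorted replicates 1, 2 and 3 and 284 CPM in the sorted library. L5-Htr2c followed at 61.3 ± 5.24 CPM, which was 3.84 times lower, and the 5 other subtypes lay between 6.22 and 15.6 CPM. L5-S100b, L2/3-Rorb, L2/3-Calb1 and L6-Npy overlapped with their neighbours in this order. In L2/3-Calb1 neurons unsorted replicate 1 held no Foxp2 UMI at all, while replicates 2 and 3 gave 9.83 and 11.1 CPM, so that its mean there was 6.99 CPM with all 3 and 10.5 CPM without replicate 1. Over the 7 subtypes, the genes with the profile most like that of Foxp2 by Pearson r of log2(CPM + 1) were Ddah1, Rab3a and Cd81 (r = 0.993, 0.993 and 0.988, with 10492 genes compared). For this and each member below, r compares the shape of a profile and not the size of its differences. These genes are the highest of 10492 over only 7 values. Whether such an r exceeds chance was not tested, so they are a description.

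Tle4 marked a pair of subtypes rather than 1. It was at 273, 285 and 267 CPM in L5-Htr2c neurons of the unsorted replicates and at 245, 244 and 245 CPM in L6-Syt6 neurons, and these ranges did not overlap. The sorted library gave 260 CPM in L6-Syt6. All 5 remaining subtypes were at least 9.20 times below L5-Htr2c, from 13.7 ± 0.50 CPM in L6-Npy to 29.9 ± 1.98 CPM in L2/3-Rorb. Apip, Ethe1 and Ctgf had the most similar profiles (r = 0.986, 0.986 and 0.984). Among the members themselves, the closest pair was Foxp2 and Tle4 (r = 0.920 over 7 subtypes from the same libraries, given as a description).

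Tbr1 was present in every subtype and differed among them by at most 4.09 times. Its level in L6-Syt6 neurons was 346, 347 and 338 CPM in the unsorted replicates and 323 CPM in the sorted library. L5-S100b came next at 186 ± 5.54 CPM, clear of the subtypes on both sides of it. L6-Npy, L5-Htr2c and L2/3-Rorb followed at 139, 127 and 124 CPM. L6-Npy (133 to 143 CPM) lay above L2/3-Rorb (120 to 130 CPM), and L5-Htr2c overlapped with both. L5-Bcl6 (99.9 ± 2.25 CPM) and L2/3-Calb1 (84.1 ± 3.91 CPM) were lowest. The genes most like Tbr1 were Uchl5, Rnf180 and Med30 (r = 0.978, 0.978 and 0.959).

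Fezf2 was highest in layer 5 subtypes other than L5-S100b. It reached 265, 277 and 290 CPM in L5-Htr2c neurons and 231, 271 and 266 CPM in L5-Bcl6 neurons of the unsorted replicates, and these ranges overlapped. L6-Syt6 was next at 117 ± 1.38 CPM, and L5-S100b, also a layer 5 subtype, had only 59.7 ± 4.99 CPM. L2/3-Rorb (38.1 CPM), L6-Npy (18.8 CPM) and L2/3-Calb1 (4.23 CPM, from 26 UMIs) completed an order in which no further neighbours overlapped. The L2/3-Calb1 value varied widely, with 0.51, 4.43 and 7.74 CPM in unsorted replicates 1, 2 and 3, and its mean was 2.47 CPM without replicate 3. The profile of Fezf2 was closest to those of Gpatch2l and Ggps1 (r = 0.994 and 0.973).

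Bcl11b shared the layer 5 pattern of Fezf2 with the order of the leading subtypes exchanged. L5-Bcl6 neurons had 424, 474 and 442 CPM in the unsorted replicates and L5-Htr2c neurons had 399, 339 and 341 CPM. L6-Syt6 was at 194 ± 5.86 CPM, L6-Npy at 95.2 ± 2.77 CPM and L5-S100b at 29.0 ± 2.47 CPM. L5-S100b overlapped with L2/3-Calb1 (36.6 ± 8.14 CPM), and L2/3-Rorb was lowest at 12.7 ± 1.69 CPM. Thus the 2 layer 5 subtypes L5-Bcl6 and L5-S100b differed by 15.4 times in Bcl11b between their means (ratio to L5-Bcl6). Tbk1, Mat2a and Sdhaf2 had profiles like that of Bcl11b (r = 0.977, 0.975 and 0.968).

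Sox5 was low and graded. L5-Htr2c (89.1, 92.1 and 90.0 CPM) and L6-Npy (89.2, 82.5 and 80.5 CPM) overlapped at the top, followed by L6-Syt6 at 72.4 ± 1.12 CPM. L5-S100b and L5-Bcl6 were alike within their spread at 46.6 ± 5.34 and 46.0 ± 9.82 CPM. The upper-layer subtypes L2/3-Rorb and L2/3-Calb1 were lowest at 22.8 and 9.54 CPM. L6-Npy was therefore a subtype with Sox5 near its maximum and with Foxp2 and Tle4 at their lowest mean, although it overlapped with L2/3-Calb1 for both. Stat2, Sema4g and Prss12 were most like Sox5 (r = 0.986, 0.966 and 0.965).

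Foxp1 did not keep to the deep layers, and for it the name of the list is not borne out by these levels. L5-Htr2c neurons had 470, 463 and 453 CPM, L2/3-Rorb neurons 445, 452 and 413 CPM and L5-S100b neurons 431, 417 and 411 CPM in unsorted replicates 1, 2 and 3. L2/3-Rorb overlapped with L5-S100b, and L5-Htr2c lay just above L2/3-Rorb. L5-Bcl6 was intermediate at 275 ± 27.5 CPM. L2/3-Calb1 (182 CPM), L6-Npy (174 CPM) and L6-Syt6 (174 CPM) were lowest and overlapped. Foxp1 and its relative Foxp2 thus had different orders, with L6-Syt6 at the top for Foxp2 and at the bottom for Foxp1 (r = 0.0214 over the 7 subtypes). The profiles most like that of Foxp1 were those of Asic1, Brsk2 and Rnf11 (r = 0.989, 0.988 and 0.981).

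**Figure D1:**
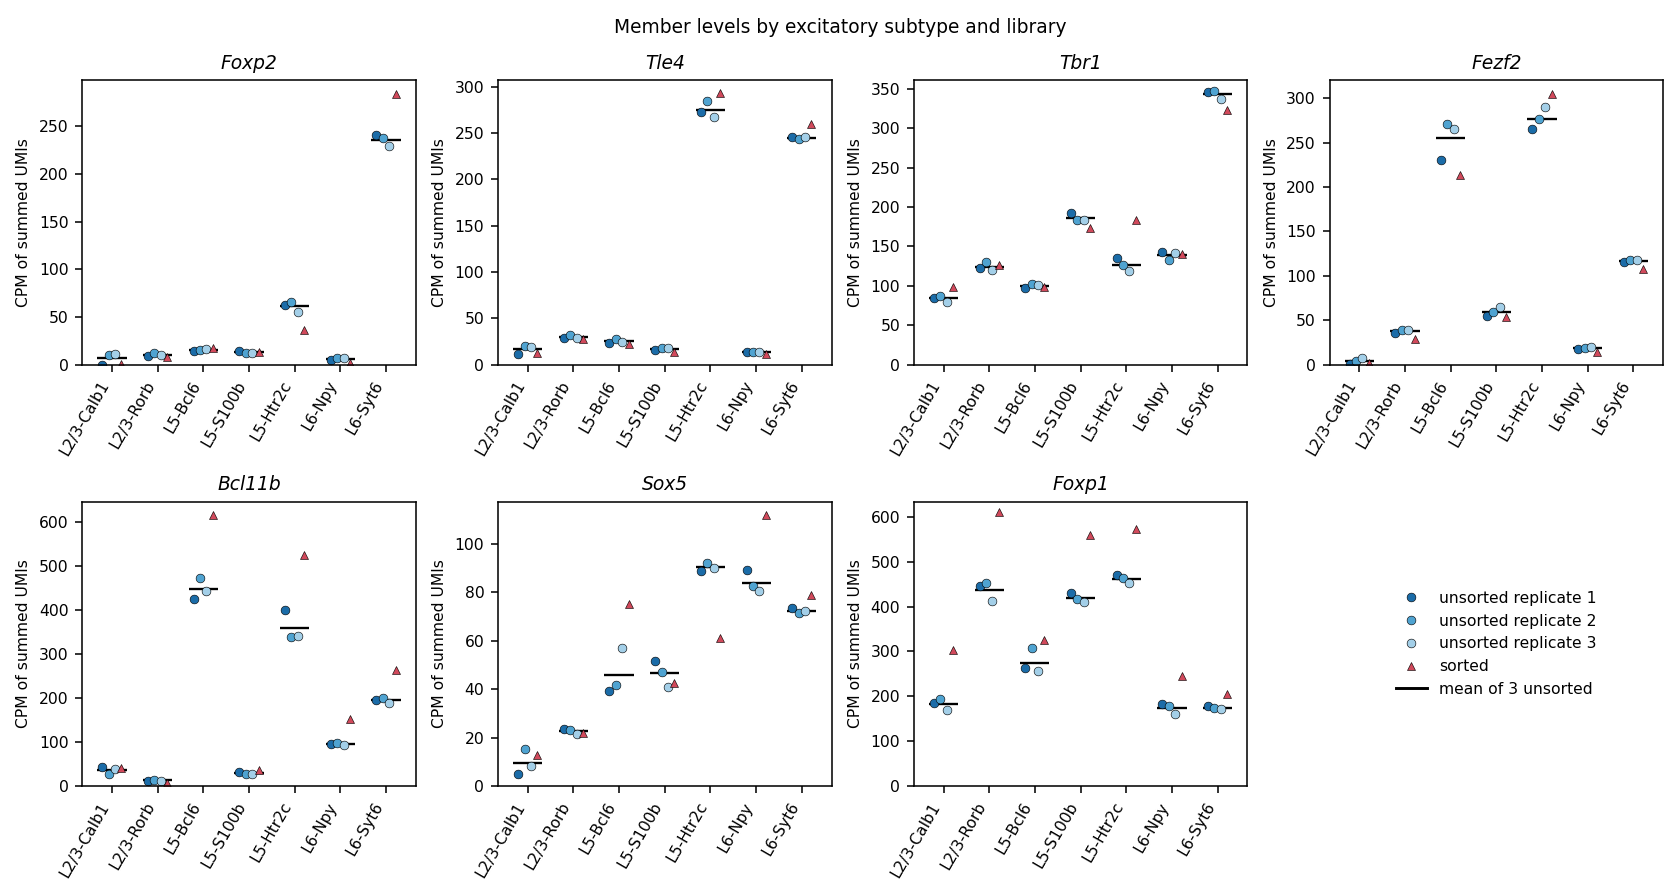
Each panel plots the CPM of summed UMIs of 1 member (y axis, linear, from 0) in the 7 subtypes (x axis), with circles for the 3 unsorted libraries, a triangle for the sorted library and a line at the unsorted mean. Foxp2 stands out in L6-Syt6 at 235.6 CPM, Fezf2 and Bcl11b in L5-Bcl6 and L5-Htr2c, and Foxp1 is spread over upper and deep layers.

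The sorted library was compared with the unsorted ones over 6 subtypes, leaving out L5-Htr2c, of which it held 4 neurons. Foxp1 was above all 3 unsorted libraries in 6 of 6 subtypes, for example 559 CPM against 411 to 431 CPM in L5-S100b. Of 10456 genes with a mean of at least 5 CPM, 25.1% showed the same. Bcl11b was above them in 4 subtypes, with 616 CPM against 424 to 474 CPM in L5-Bcl6, and Sox5 in 3, which 45.6% and 53.7% of genes matched or passed. Fezf2 was below them in 5 of 6 subtypes and Tle4 in 4, which 20.1% and 25.4% of genes matched or passed. With 1 sorted library these are values without a test, in which sorting, animals, library and depth cannot be told apart.

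Detection in single neurons followed the same lines after each neuron had been thinned to 10000 UMIs, which left out 221 unsorted and 49 sorted neurons that were shallower. Foxp2 had a UMI in 86.2% ± 0.59 of L6-Syt6 neurons (n = 3 libraries), 40.9% ± 6.50 of L5-Htr2c neurons and 2.04% ± 0.88 of L6-Npy neurons. Tle4 was detected in 92.8% of L5-Htr2c and 88.6% of L6-Syt6 neurons, and Bcl11b in 98.9% of L5-Bcl6 neurons against 21.0% of L5-S100b neurons. In the layer 6 subtypes Tbr1 was found in 95.8% (L6-Syt6) and 73.8% (L6-Npy) of neurons.

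To place these shares against background, cells outside the metadata were gated on marker genes, and neurons and gated cells were thinned to 2000 UMIs. In gated inhibitory neurons (median 12390 UMIs before thinning) the share with a UMI was then 0.48% for Foxp2, 0.60% for Tbr1 and 0.00% for Fezf2 in 1028 cells, where a count of 0 allows a share of up to 0.292% at this depth. Before thinning, the share of gated inhibitory neurons with a Fezf2 UMI was 1.18% ± 0.85 as the mean of the 3 unsorted libraries (1057 cells). At the same 2000 UMIs Foxp2 was found in 36.4% of L6-Syt6 and 0.84% of L6-Npy neurons, so that the L6-Npy share lay near background. Tbr1 was found in 12.8% of L2/3-Calb1 neurons, its lowest subtype, above the share in inhibitory neurons. Fezf2 was found in 0.33% of L2/3-Calb1 neurons.

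**Figure D2:**
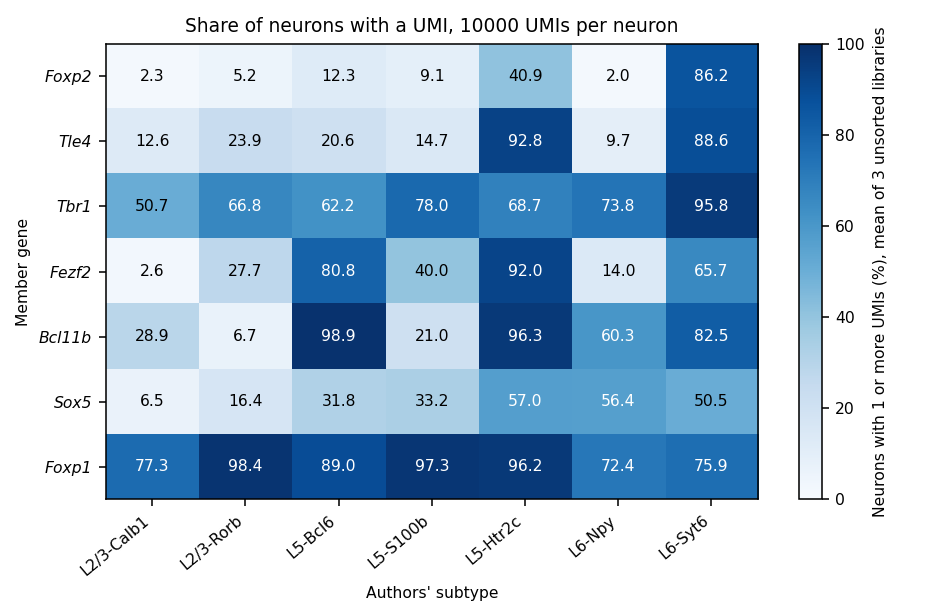
The heat map gives the share of neurons with 1 or more UMIs of each member (rows) in each subtype (columns), in percent, as the mean of the 3 unsorted libraries after thinning to 10000 UMIs per neuron. L6-Syt6 and L5-Htr2c are dark for most members, while the upper-layer subtypes are dark for Foxp1 and, less so, for Tbr1.

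Most of the members were found together in the same neurons of 2 subtypes. Of the 7 members, a thinned L6-Syt6 neuron had UMIs of 5.45 ± 0.014 on average and an L5-Htr2c neuron of 5.44 ± 0.13. At least 5 members were detected in 82.7% of L6-Syt6 and 84.1% of L5-Htr2c neurons, 27.3% ± 7.16 of L5-Bcl6 neurons and at most 6.60% in the other 4 subtypes. Within L6-Syt6 the pairs met as often as their separate shares would give. Foxp2 and Tle4 were found together in 76.4% of these neurons, and the product of their shares was 76.3%. Fezf2 and Bcl11b were found together in 54.8%, with a product of 54.2%.

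Outside the excitatory neurons, 5 members had a site of their own, Foxp2 had a weak site and Tbr1 had none. In the 3 unsorted libraries, over which all values here are given, 7755 cells of 7 other classes passed a gate of at least 3 markers of 1 class and at most 1 of any other. The 47 cells outside the metadata that passed the excitatory gate are not among them. Foxp1 was at 643 ± 10.4 CPM in endothelial cells, above its level in any excitatory subtype of these libraries, and at 217 ± 11.9 CPM in mural cells. Sox5 was at 212 ± 14.6 CPM in oligodendrocyte precursors and 127 ± 13.3 CPM in astrocytes, also above its highest neuronal level. Tle4 reached 193 ± 8.06 CPM and Fezf2 49.9 ± 10.5 CPM in astrocytes. Fezf2 was at most 3.75 CPM on average in the 6 other gated classes. Bcl11b was at 95.5 ± 4.11 CPM in inhibitory neurons, and at 8.93 CPM or less in glia and vascular cells. Foxp2 was low but highest in oligodendrocyte precursors, at 13.0 ± 0.52 CPM, and at most 4.73 CPM on average in the 6 other gated classes. Tbr1 stayed at or below 5.36 CPM in all 7 classes.

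**Figure D3:**
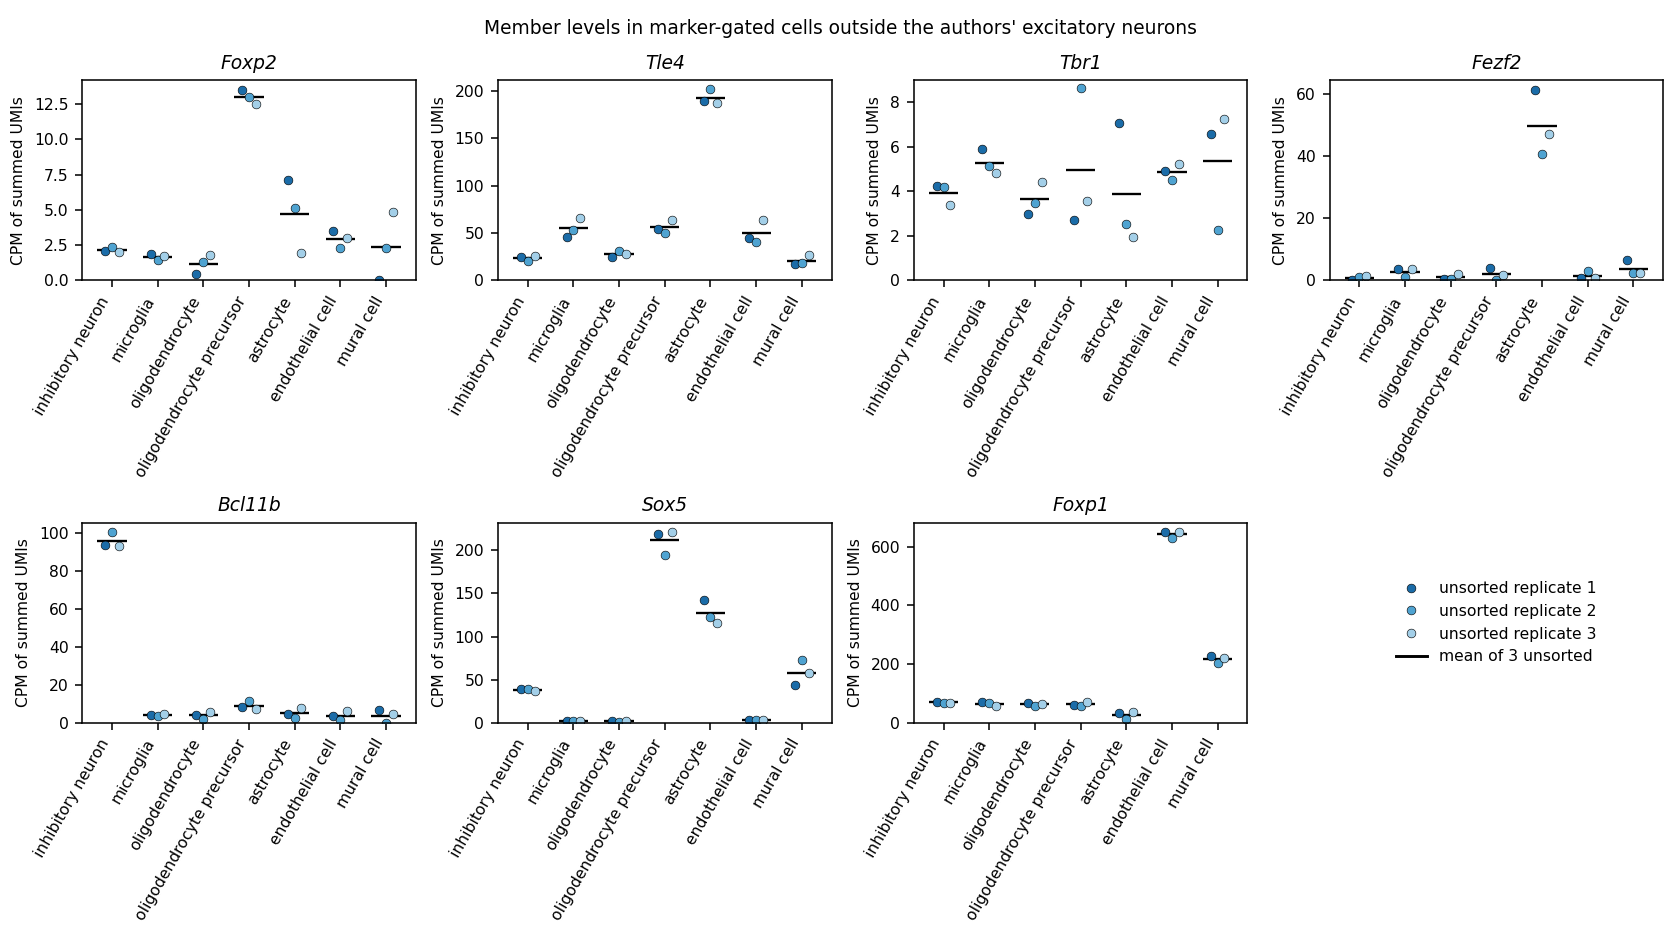
Each panel plots the CPM of 1 member (y axis, linear, from 0; the scale differs between panels) in 7 classes of marker-gated cells outside the excitatory neurons, with a circle for each of the 3 unsorted libraries and a line at their mean. Foxp1 peaks in endothelial cells, Sox5 in oligodendrocyte precursors, Tle4 and Fezf2 in astrocytes and Bcl11b in inhibitory neurons.

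The next question was whether the members differ, within a subtype, between neurons with and without viral barcode transcripts, which mark uptake of virus at an injected target. The methods describe the 5 barcodes as genes of their own in the reference, while the matrices hold 1 feature named barcode. Whether it is the sum of the 5 was not tested, and it does not tell the targets apart. A neuron with 5 or more UMIs of it was called barcode-high and a neuron with 0 barcode-zero, and UMIs were summed per library and class. L6-Syt6 had 1635 barcode-high and 2327 barcode-zero neurons, and L5-S100b had 958 and 195. Barcode-zero neurons of L5-S100b numbered only 24 to 74 per library. Barcode-high neurons were deeper in each library, with medians of 24582 to 38604 UMIs against 21684 to 30096.5 UMIs in L6-Syt6 and of 25553.5 to 34389 UMIs against 19306.5 to 28185 UMIs in L5-S100b. A barcode-zero neuron may have been labelled and missed at its depth. Classes were compared with edgeR's quasi-likelihood test with the library as a block, and a call needed an adjusted p (Benjamini-Hochberg, over all genes tested) under 0.05 together with a log2 fold change of 0.5 or more in either direction.

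In L5-S100b neurons 3 of the 7 members were called, Tbr1 and Fezf2 higher and Bcl11b lower in barcode-high neurons. Of 11477 genes tested 2.70% were called, 1.10% higher and 1.60% lower. The median log2 fold change of the 7 members was 0.12, and that of all genes -0.0036. None of the 3 was called in a fit without the library block (edgeR adjusted p = 0.0960 for Tbr1, 0.116 for Fezf2 and 0.0799 for Bcl11b).

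Tbr1 was at 204, 192, 196 and 184 CPM in barcode-high neurons of unsorted replicates 1, 2 and 3 and the sorted library, against 152, 108, 147 and 144 CPM in barcode-zero neurons. Every barcode-high value was above every barcode-zero value, with unsorted replicate 2 showing the widest gap. On the log2 scale Tbr1 rose by 0.52 (SE 0.0767, edgeR adjusted p = 1.91e-05). Without unsorted replicate 2 it was 0.43 (adjusted p = 0.00299), which is under the fold limit.

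Fezf2 was at 58.4, 60.6, 68.7 and 59.1 CPM in barcode-high and 39.5, 50.8, 37.7 and 47.2 CPM in barcode-zero neurons, in the same order of libraries. The classes did not overlap, although the gap in unsorted replicate 2 was small. Fezf2 rose by 0.54 on the log2 scale (SE 0.120, edgeR adjusted p = 0.00377). Without unsorted replicate 3 it was 0.42 (adjusted p = 0.0619), and with DESeq2 0.53 (adjusted p = 0.0806).

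Bcl11b was at 25.4, 26.3, 26.5 and 27.6 CPM in barcode-high and 51.0, 36.7, 31.9 and 59.7 CPM in barcode-zero neurons. Barcode-high values were nearly equal across libraries and all lower, while the barcode-zero values were scattered. Bcl11b fell by 0.72 on the log2 scale (SE 0.145, edgeR adjusted p = 0.00135). Without unsorted replicate 1 it fell by 0.59 (adjusted p = 0.0567).

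The 4 other members were not called in L5-S100b. Foxp1 was higher in barcode-high neurons of 4 of 4 libraries, at 416 to 576 CPM against 382 to 457 CPM, with a log2 fold change of 0.20 that passed the adjusted p (0.0239, edgeR), as 5.98% of genes did, and not the fold limit. It missed the adjusted p with DESeq2 (0.183), in neurons of 15000 to 35000 UMIs (edgeR, 0.0795), and with edgeR without unsorted replicate 1 (0.0867), unsorted replicate 2 (0.0709) or the sorted library (0.135). Sox5 was lower in 4 of 4 libraries, with a log2 fold change of -0.24 (SE 0.115, edgeR adjusted p = 0.290). Tle4 and Foxp2, both at most 31.9 CPM in any library and class of this subtype, had log2 fold changes of -0.32 (SE 0.214, edgeR adjusted p = 0.490) and 0.12 (SE 0.232, adjusted p = 0.858), and each was higher in 2 libraries and lower in 2.

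In L6-Syt6 neurons none of the 7 members was called by edgeR or by DESeq2, where edgeR called 1.67% of 13030 genes. At an unadjusted p under 0.05 there were 4 members with edgeR and 3 with DESeq2. At an adjusted p under 0.05 without the fold limit there were 2, Tle4 and Foxp1, and 7.28% of all genes. The median log2 fold change of the 7 members was -0.047 here, and that of all genes -0.0051.

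Tle4 was at 215, 199, 207 and 237 CPM in barcode-high L6-Syt6 neurons and 258, 259, 265 and 306 CPM in barcode-zero neurons, in unsorted replicates 1, 2 and 3 and the sorted library. All barcode-high values were below all barcode-zero values. The fitted difference was -0.30 on the log2 scale (SE 0.0486, edgeR adjusted p = 0.0110). It was as large without the sorted library (-0.30, adjusted p = 4.41e-17), while leaving out any of the unsorted libraries gave -0.32 to -0.28 with adjusted p of 0.0778 to 0.121.

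Foxp1 was at 163, 150, 152 and 185 CPM in barcode-high and 181, 182, 181 and 261 CPM in barcode-zero neurons. It was lower in 4 of 4 libraries, most so in the sorted one, whose barcode-high value exceeded the unsorted barcode-zero values. On the log2 scale the fitted difference was -0.24 (SE 0.0551, edgeR adjusted p = 0.0328), and it was -0.20 (adjusted p = 6.49e-08) without the sorted library. Leaving out unsorted replicate 1, 2 or 3 gave adjusted p of 0.0953, 0.168 and 0.140, and neurons of 15000 to 35000 UMIs, in which the classes are closer in depth, gave -0.23 (adjusted p = 0.0607) for Foxp1 and -0.29 (adjusted p = 0.0219) for Tle4.

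Sox5 had a log2 fold change of -0.18 (SE 0.0522, edgeR adjusted p = 0.0699) and was lower in 4 of 4 libraries, and Foxp2 one of 0.11 (SE 0.0485, adjusted p = 0.187) and was higher in 3 of 4. Without the sorted library Foxp2 gave 0.14 (edgeR adjusted p = 5.35e-06), Sox5 -0.14 (adjusted p = 0.0131) and Fezf2 -0.12 (adjusted p = 0.00622). With Tle4 and Foxp1, 5 of the 7 members then passed the adjusted p without the fold limit, where 21.1% of all genes did. Tbr1 (-0.047, SE 0.0493), Fezf2 (-0.011, SE 0.0866) and Bcl11b (0.0044, SE 0.0482) had fold changes within their errors (edgeR adjusted p = 0.597, 0.955 and 0.969) over the 4 libraries. Fezf2 was lower in barcode-high neurons of the unsorted libraries (111.9, 111.1 and 107.9 CPM against 119.0, 122.3 and 125.6 CPM) and higher in those of the sorted library (111.3 against 86.5 CPM). Bcl11b was lower in 4 of 4 libraries in CPM (mean 209 against 214 CPM), opposite in sign to its fitted value.

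**Figure D4:**
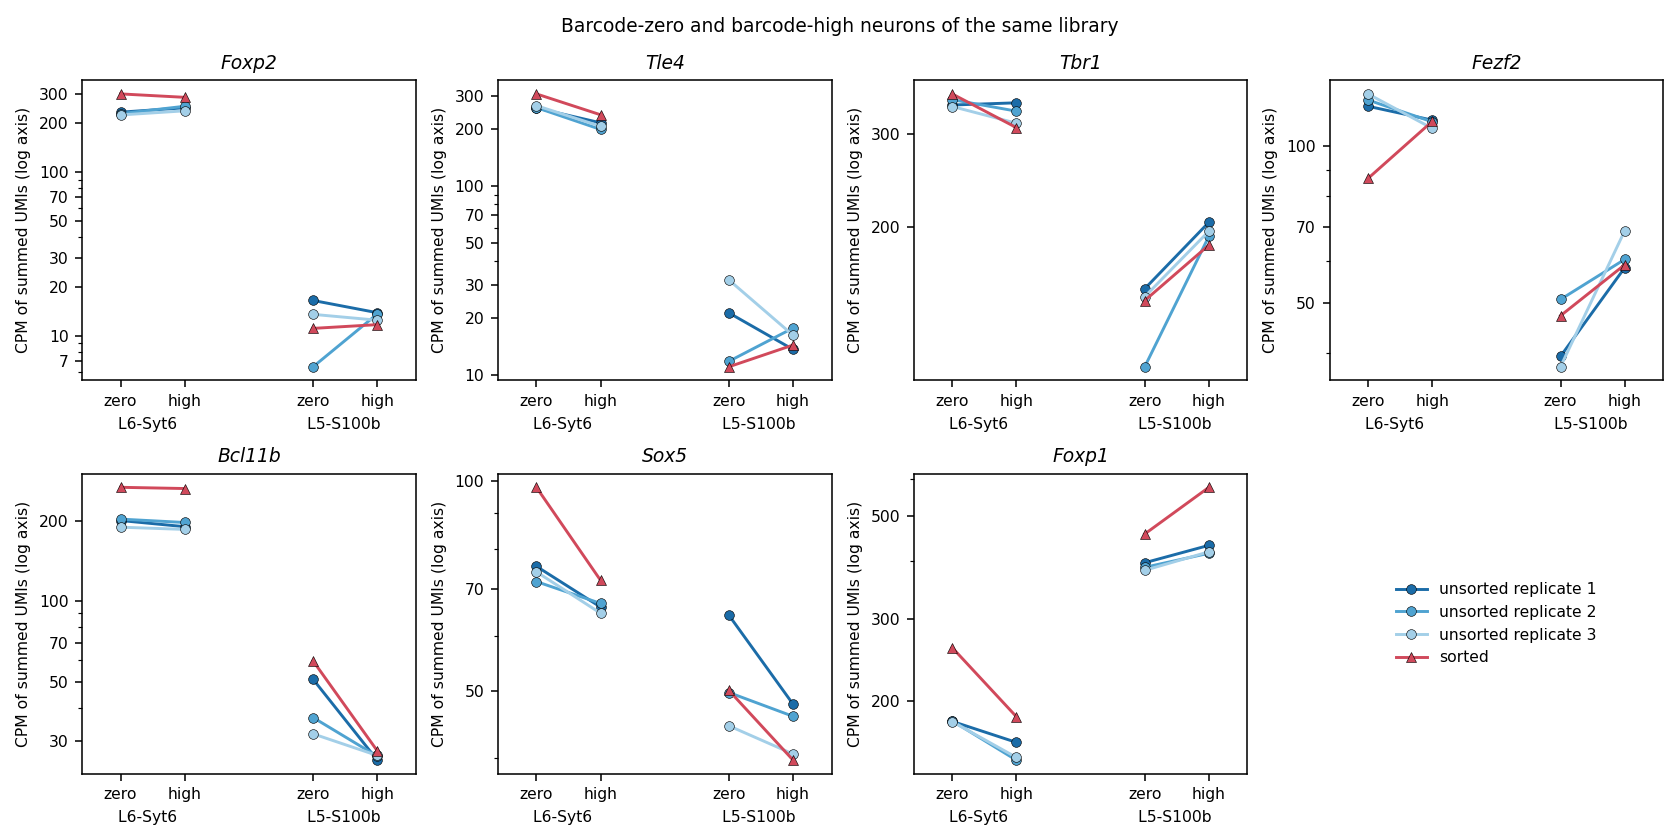
Each panel plots the CPM of 1 member (log axis) in barcode-zero and barcode-high neurons of L6-Syt6 (left pair) and L5-S100b (right pair), with a line for each of the 4 libraries. In L5-S100b all lines go up for Tbr1, Fezf2 and Foxp1 and down for Bcl11b and Sox5. In L6-Syt6 all lines go down for Tle4, Foxp1, Sox5 and, slightly, Bcl11b.

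The difference of the barcode effect between the subtypes was tested as an interaction, in which 4.71% of 12834 genes passed an adjusted p of 0.05. It passed for 3 of the 7 members. The effect in L5-S100b minus that in L6-Syt6 was 0.58 for Tbr1 (SE 0.0964, edgeR adjusted p = 0.000796), -0.72 for Bcl11b (SE 0.147, adjusted p = 0.00521) and 0.45 for Foxp1 (SE 0.0854, adjusted p = 0.00260). For Fezf2 it was 0.56 with an adjusted p of 0.0511, so that its call in L5-S100b alone is not shown to differ from L6-Syt6, although it was 0.73 (adjusted p = 2.91e-05) without the sorted library. Without unsorted replicate 1 the difference of Bcl11b was -0.61 (adjusted p = 0.100). The same libraries supply both effects.

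Some of the levels also followed the number of barcode UMIs when neurons were divided into 0, 1 to 4, 5 to 19 and 20 or more (mean over 4 libraries, a description). In L5-S100b Tbr1 went from 138 ± 20.2 over 158 and 181 to 201 ± 11.2 CPM, and Fezf2 from 43.8 ± 6.21 over 54.2 and 54.5 to 67.1 ± 4.00 CPM. Bcl11b went the other way, from 44.8 ± 12.8 over 40.5 and 31.6 to 23.4 ± 3.56 CPM. In L6-Syt6 Tle4 went from 272 ± 22.8 over 270 and 224 to 193 ± 19.6 CPM and Foxp1 from 201 ± 39.8 over 195 and 165 to 157 ± 21.6 CPM. For both, neurons with 1 to 4 barcode UMIs were close to those with 0. Sox5 was lower in the top bin than at 0, at 37.5 against 52.1 CPM in L5-S100b and 62.4 against 79.8 CPM in L6-Syt6. Tbr1 was lower there in L6-Syt6 too, at 311 against 347 CPM. Fezf2 in L6-Syt6 (113, 111, 110 and 112 CPM) and Foxp2 in L5-S100b (11.9, 12.4, 14.8 and 11.8 CPM) did not follow the bins. These bins share their neurons with the classes tested above.

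**Figure D5:**
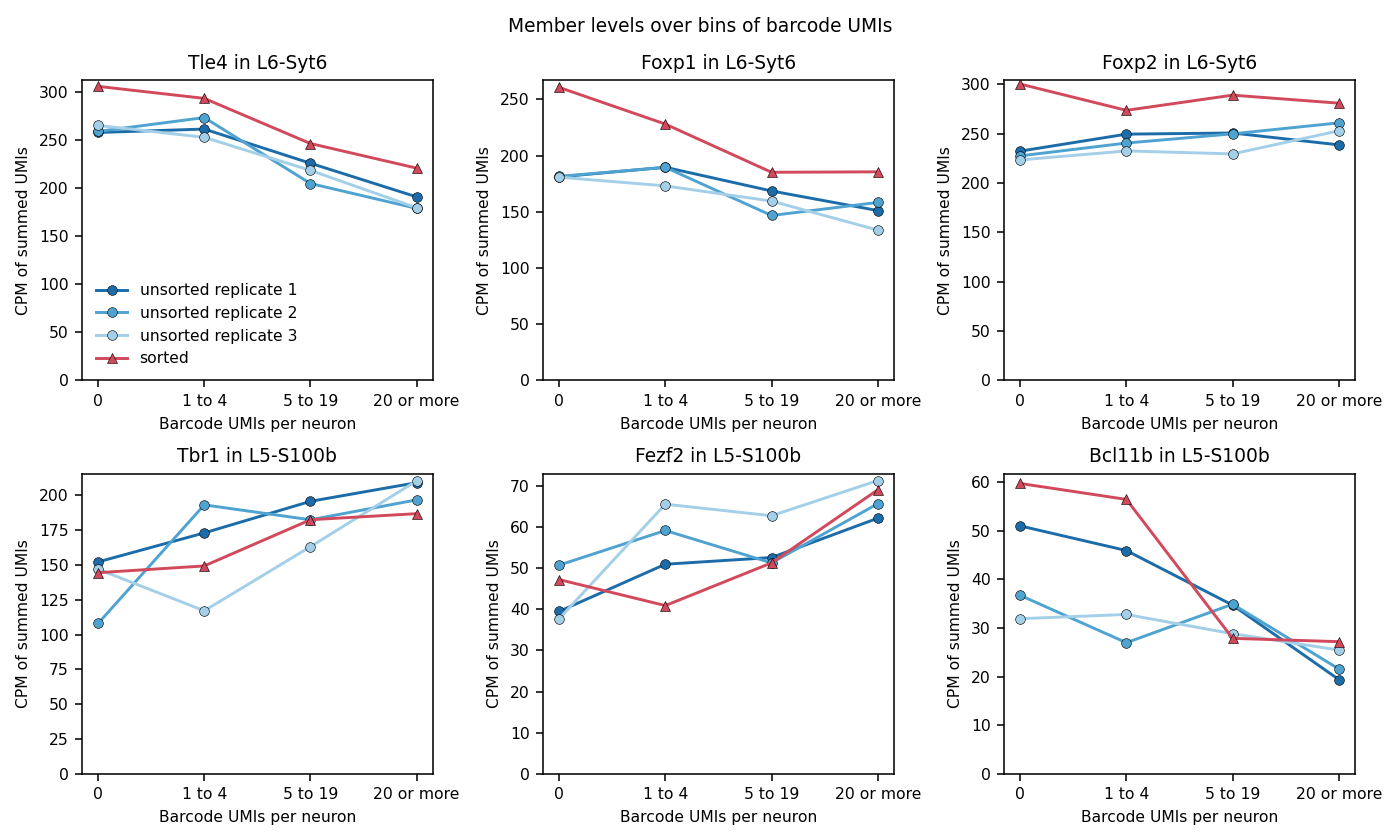
Each panel plots the CPM of 1 member (y axis, linear, from 0) in 4 bins of barcode UMIs per neuron (x axis), with a line for each of the 4 libraries. Tle4 and Foxp1 are lower in the upper bins of L6-Syt6, Foxp2 stays between 223 and 300 CPM, and in L5-S100b Tbr1 and Fezf2 are higher and Bcl11b lower in the top bin.

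Markers of other cell types were summed in the same classes. In L6-Syt6 the 7 mural cell markers summed to 24.7 to 35.7 CPM in barcode-zero and 6.66 to 11.8 CPM in barcode-high neurons, without overlap. Of these Rgs5 made up 20.2 to 34.5 and 5.83 to 9.46 CPM, and none of the other 6 exceeded 3.20 CPM. Their part in the lower Foxp1 of barcode-high neurons was not tested. In L5-S100b the 6 oligodendrocyte precursor markers summed to 12.3 to 18.4 CPM in barcode-zero and 7.03 to 12.0 CPM in barcode-high neurons, and the 5 excitatory markers to 2121 to 2277 and 2596 to 2778 CPM, also without overlap and with their part in the results not tested. The range of inhibitory neuron markers in L5-S100b, 0.00 to 7.56 against 0.28 to 6.64 CPM, overlapped; inhibitory neurons are a class in which Bcl11b was found.

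Related genes were read in 4 lists. Of 25 paralogs and partners of the members, such as Foxp4, Tle1 and chromatin subunits that bind Bcl11b or Tle proteins, 16 were tested in L6-Syt6 and 18 in L5-S100b and none was called in either direction. Their median log2 fold changes were -0.054 and 0.035, beside -0.0051 and -0.0036 for all genes. At an adjusted p under 0.05 without the fold limit there was 1 in each subtype, beside 7.28% and 5.98% of all genes. In the interaction 1 of 18 passed, beside 4.71% of all genes. It was Bcl11a, the paralog of Bcl11b, at 0.51 (edgeR adjusted p = 0.00158).

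Of 37 other transcription factors of projection neurons, 34 were tested in L6-Syt6 and 5 called, where 1.67% of all genes were called. Nr4a2, an orphan nuclear receptor, rose by 0.55 on the log2 scale, and Pou3f3 (-0.84), Tshz2 (-1.85) and Etv1 (-0.52) fell in barcode-high neurons, with Rorb higher as the 5th, named after the values were seen (edgeR adjusted p = 0.00311, 0.000489, 0.000489, 0.00311 and 0.0399). The list's median was -0.057. In L5-S100b 33 were tested and 5 called, where 2.70% of all genes were called. Lhx2 rose by 0.60 and Nfib (-0.59), Cux2 (-2.19) and Nfia (-0.78) fell (edgeR adjusted p = 0.000466, 2.77e-07, 2.99e-05 and 0.00647), with Bcl6 lower as the 5th and a median of -0.025. Cux2, known as an upper-layer factor, fell in the same neurons in which Bcl11b fell and Tbr1 and Fezf2 rose.

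Of 18 layer 6 corticothalamic markers, all 18 were tested in L6-Syt6, with 1 called higher and 2 lower (median 0.10). The share of all genes called was 1.67% in L6-Syt6 and 2.70% in L5-S100b. Cyr61 rose by 0.72, and Cplx3 (-1.61) and Nxph4 (-0.86), both known from layer 6b, fell (edgeR adjusted p = 0.0108, 0.00967 and 0.0185). In L5-S100b 12 were tested, Rprm rose by 1.00 and Ntsr1 fell by 1.03 (edgeR adjusted p = 6.90e-06 and 0.0100), and the median was 0.31. Of 16 layer 5 subcerebral markers, 13 were tested in L6-Syt6 with none called by edgeR, 2 at an adjusted p under 0.05, and a median of -0.18. In L5-S100b 12 were tested with a median of -0.23, S100b, the name gene of the subtype, rose by 1.16, and Npr3 (-1.94), Bcl6 (-1.24) and Cacna1h (-0.71) fell (edgeR adjusted p = 5.12e-05, 0.000175, 0.0168 and 0.0343). S100b was in the subcerebral list, but its level was 51.8 CPM in L5-S100b against at most 12.4 CPM in any other subtype. Its rise is therefore that of the subtype's own name gene. Bcl6, which was also counted among the projection-neuron factors, names another layer 5 subtype, L5-Bcl6, in which Bcl11b was highest.

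In the interaction 11 of 35 projection-neuron factors, 3 of 18 corticothalamic markers and 3 of 13 subcerebral markers passed an adjusted p of 0.05, as 4.71% of all genes did. The list medians were 0.068, 0.23 and -0.087 beside -0.012 for all genes. By lowest edgeR adjusted p, the factors were Etv1 (1.02), Pou3f3 (0.99), Nfib (-0.56) and Nfia (-0.98), as the effect in L5-S100b minus that in L6-Syt6 on the log2 scale. The corticothalamic markers were Garnl3 (0.61), Rprm (0.76) and Ntsr1 (-1.24). From the subcerebral list they were Npr3 (-1.66), Parm1 (-0.61) and S100b (1.33), the name gene of L5-S100b.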

How the data were processed

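Per the file headers and methods, reads of the 3' single-cell libraries were counted by the authors with Cell Ranger 3.0.2 on mm10 plus the projection barcodes, 1 matrix per library. The deposited values are raw UMI counts of called cells, and the deposited metadata give the subtype, UMI counts and percent of mitochondrial UMIs of neurons kept by the authors (Seurat 3.1.4 per the labels). The authors' cell filter (500 to 8000 genes, UMIs from 1000 to 60000, less than 20% mitochondrial) passed 21263 cells here. Its upper limits were the authors' removal of possible doublets, and no doublet caller was run here. Recomputed totals differed from deposited ones by at most 70 UMIs per neuron.

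The members and lists were chosen with earlier results of these data known. Raw counts were summed per library, subtype and barcode class, without the viral feature (0.0319% to 0.0384% of UMIs), and tested with edgeR 4.0.16 in R 4.3.3 (TMM factors, filterByExpr, quasi-likelihood F test, library as block because both classes came from each library). The tests were checked on simulated counts, with log2 changes of 1 planted in 200 genes and no differences between libraries other than size. Of these genes 78.5% were recovered in L6-Syt6, 74.5% in L5-S100b and 34% for the interaction. Smaller changes and library effects were not simulated. Alternatives were DESeq2 1.42.0, RLE size factors, no low-count filter, no block, other barcode limits, neurons of 15000 to 35000 UMIs and leaving out each library. Thinning drew UMIs without replacement (seed 1). Intervals and floors cover counting error only. All 7 members were named in each comparison, with up to 4 called genes per list by lowest adjusted p and the 3 genes most like each member by Pearson r over 7 subtypes, of which 1 is not reported here. The count of 0 floor is 3 cells of those thinned and holds at 2000 UMIs per cell only. Neurons by individual target were not analysed here.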

Additional observations from a re-analysis of the deposited data

Results flagged for a closer look

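The barcode effect differed between L5-S100b and L6-Syt6 for 3 members by the test of the difference itself (edgeR, over 12834 genes): Tbr1 by 0.58, Bcl11b by -0.72 and Foxp1 by 0.45 on the log2 scale. For Foxp1, barcode-high neurons were higher in all 4 libraries in L5-S100b and lower in all 4 in L6-Syt6.

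In 14 groups of 4 library differences checked for a value far from the others, 2 were found in L5-S100b. The log2 difference of Tbr1 in unsorted replicate 2 was 0.83, against 0.35 to 0.42 in the other libraries, and that of Foxp1 in the sorted library was 0.33, against 0.10 to 0.13. Chance gives about 1 such value in 20 groups.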

How the results depend on the processing

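Both barcode classes of a comparison came from each library, so the library was a block in all tests. With no replicate block the calls over all genes were 75 in L6-Syt6, 56 in L5-S100b and 77 for the interaction, against 218, 310 and 604 with the block. No member was then called in L5-S100b or the interaction (0 of 7 each), nor did Tle4 or Foxp1 pass the adjusted p in L6-Syt6. Foxp2 gave -0.0018 for the interaction in this fit. With the class limit at 1 or more barcode UMIs the calls were 27, 202 and 293, and at 20 or more they were 577 in L6-Syt6 and 983 for the interaction. At 1 or more barcode UMIs no member passed the adjusted p in L6-Syt6, so Tle4 and Foxp1 lost it there. At 20 or more, 3 members passed it in L6-Syt6 and 5 in L5-S100b, against 2 and 4 in the main setting. DESeq2 called 142 in L5-S100b. Leaving out 1 library gave 28 to 309, 178 to 289 and 210 to 1103 calls. The 28 came without unsorted replicate 2 and the 1103 without the sorted library. Member calls were 2 to 3 in L5-S100b and 2 to 4 for the interaction under these omissions, and Bcl11b lost its interaction without unsorted replicate 1 (-0.61, adjusted p = 0.100). Tbr1 fell under the fold limit in L5-S100b at 1 or more barcode UMIs (0.47) and in neurons of 15000 to 35000 UMIs (0.48). The Fezf2 interaction passed with RLE size factors (adjusted p = 0.0429), no low-count filter, 20 or more barcode UMIs, the depth window and without the sorted library. The sign turned in 22 of 231 alternative fold changes, none of them called: in L6-Syt6, Fezf2 with DESeq2 (0.015), no filter (0.0028) and 20 or more UMIs (0.029), and -0.12 to 0.066 on leaving out a library, and Bcl11b with 1 or more UMIs (-0.0036), 20 or more (-0.030) and the depth window (-0.030), and -0.020 to 0.022; in L5-S100b, Foxp2 in the depth window (-0.070), and -0.10 to 0.31, and Tle4, -0.55 to 0.00039; for the interaction, Foxp2 at 20 or more UMIs (-0.12), in the depth window (-0.18), and -0.18 to 0.21, Tle4 at 20 or more UMIs (0.036), and -0.27 to 0.29, and Sox5, -0.086 to 0.038. The cause was not tested. Of 245 alternative levels, 25 moved by more than the SD of the 3 libraries. The subtype of highest mean was the same in all 7 members with the mean of per-cell CPM, and in neurons of 15000 to 35000 UMIs it changed for Sox5 (L6-Npy) and Foxp1 (L2/3-Rorb). Shares depend on depth, and 137 of 147 moved on other thinning or at 2 or more UMIs.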
